A study of Mus musculus with 2 samples.

Results

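The Mir379-Mir410 cluster is the distal block of microRNA (miRNA) genes in the imprinted Dlk1-Dio3 region of mouse chromosome 12. Its members were taken by position alone, as every counted miRNA gene that GENCODE M21 (mm10) places on the plus strand of chromosome 12 within a fixed window that opens just before Mir379 and closes just after the start of Mir3072. This gave 39 of the 2202 miRNA genes counted, from 109709060 to 109747960, over a span of 38901 bp. The data are small RNA libraries (microRNA-seq) of the gastrocnemius, a calf muscle of the hindlimb, from 2 male B6CASTF1/J mice aged 10 days. B6CASTF1/J animals are F1 hybrids of the C57BL/6J and CAST/EiJ strains, and the labels give no treatment and no second group. By their labels the samples are biological replicates 1 and 2, and each carries an animal number of its own, although the donor entry is the same for both. The tables are not split by allele.

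The genes of the Dlk1-Dio3 region are expressed from 1 parental chromosome. The long non-coding transcripts that begin at Meg3, and the miRNAs that lie along them, come from the maternal copy. The hairpins of the distal block are known to be cut from long precursor transcripts, of which Mirg is the annotated part in this stretch. The block is best known from brain and placenta and from fetal and newborn tissues, and mice without it are known to adapt poorly to fasting at birth. In muscle, the transcription factor MEF2A is known to drive the region, and Mir410, a member, is known to repress the Wnt inhibitor Sfrp2.

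Most counts of the cluster came from a few hairpins, and the sequences of the 12 leading members are shown for that reason. Each hairpin gene gives a 5p and a 3p arm, and the counts are per hairpin, so the arms of a member cannot be told apart. Of the 39 members, 38 were matched to the RefSeq table (GRCm38.p6) with at least 1 mature arm, 71 arms in all, of 19 to 25 nt. Gm27379 was not matched, and Mir376c, Mir453, Mir485, Mir487b and Mir539 had only 1 arm listed. Arms that were not listed are absent from the comparisons of seeds below. The arms are written 5′ to 3′, with the seed, bases 2 to 8, in capitals.
mmu-miR-411-5p: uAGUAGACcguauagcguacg
mmu-miR-411-3p: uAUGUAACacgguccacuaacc
mmu-miR-379-5p: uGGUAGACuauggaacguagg
mmu-miR-379-3p: uAUGUAACaugguccacuaacu
mmu-miR-541-5p: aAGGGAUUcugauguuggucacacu
mmu-miR-541-3p: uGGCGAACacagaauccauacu
mmu-miR-382-5p: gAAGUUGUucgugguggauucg
mmu-miR-382-3p: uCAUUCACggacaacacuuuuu
mmu-miR-487b-5p: uGGUUAUCccuguccucuucg
mmu-miR-381-5p: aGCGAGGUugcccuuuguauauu
mmu-miR-381-3p: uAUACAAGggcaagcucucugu
mmu-miR-376c-5p: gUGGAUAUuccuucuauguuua
mmu-miR-299a-5p: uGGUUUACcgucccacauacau
mmu-miR-299a-3p: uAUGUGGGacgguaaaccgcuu
mmu-miR-409-5p: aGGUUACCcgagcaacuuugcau
mmu-miR-409-3p: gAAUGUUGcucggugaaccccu
mmu-miR-154-5p: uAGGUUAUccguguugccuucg
mmu-miR-154-3p: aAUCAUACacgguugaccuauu
mmu-miR-369-5p: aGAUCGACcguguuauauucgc
mmu-miR-369-3p: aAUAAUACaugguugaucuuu
mmu-miR-134-5p: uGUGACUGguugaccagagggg
mmu-miR-134-3p: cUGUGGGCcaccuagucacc

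The seeds were diverse. The 71 arms had 65 different seeds, and 6 seeds occurred in more than 1 member, each in exactly 2. None of these 6 seeds was found in a mature arm of a gene outside the cluster in the RefSeq table. The pair with the most counts was Mir379 and Mir411, whose 3p arms share the seed AUGUAAC. Their 3p arms were identical at 20 of 22 bases and differed as U10C and U22C (the base of Mir379, the position from the 5′ end, the base of Mir411), both outside the seed. Their 5p arms were identical at 14 of 21 bases, and 1 of the differences, G2A, lay in the seed. The seed of the 5p arm of Mir379 was shared with Mir1193 instead. The other pairs were Mir376c with Mir376b, Mir494 with Mir410, Mir453 with Mir496a, and Mir1197 with Mir758. These shared the seed of their 5p arms, or of the only listed arm in the case of Mir453.

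Some arms looked alike over most of their length but had different seeds, as these pairs show.
mmu-miR-381-3p: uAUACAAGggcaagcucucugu
mmu-miR-300-3p: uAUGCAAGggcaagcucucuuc
mmu-miR-376b-3p: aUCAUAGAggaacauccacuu
mmu-miR-376a-3p: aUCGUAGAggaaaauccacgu
The 3p arms of Mir381 and Mir300 were identical at 19 of 22 bases, and the difference A4G placed them in different seed groups. Those of Mir376b and Mir376a were identical at 18 of 21 bases, again with A4G in the seed. The Mir376 hairpins are known as substrates of A-to-I RNA editing, and the deposited counts carry no information on the bases of the reads.

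Replicate 1 held 3999172 counts assigned to miRNA genes and replicate 2 held 5062714, with 47.0% and 48.0% of all reads left out because they matched several places. Levels are counts per 1000000 assigned counts (CPM). No correction for length was made, since a small RNA read covers its molecule whole. Where no read was counted, a true level of up to 3 counts is allowed, or 0.75 CPM in the first library and 0.593 CPM in the other. The muscle miRNAs of the marker list summed to 101176 and 88175 CPM, of which Mir206 gave 100599 and 87446 CPM. Mir1a-2 had 91.5 and 112 CPM and Mir133a-1 had 6.75 and 4.94 CPM, but Mir1a and Mir133a have near-identical copies, and reads matching several copies were counted for none. The endothelial Mir126a stood at 55784 and 67925 CPM, and the 14 neuronal and glial genes, of which 8 were detected, summed to 1116 and 1160 CPM. Mir338 (473 and 421 CPM) and Mir128-1 (381 and 392 CPM) held most of this sum. Mir124a-2, Mir124a-3 and Mir9-2, of the defining neuronal miRNAs, had no count. Their copies Mir124a-1, Mir9-1 and Mir9-3 had 4 counts or fewer in each library. The same limit on near-identical copies holds for these genes. Mir137, another neuronal miRNA of the list, had 29.5 and 84.7 CPM. The part of each cell type in the cluster's counts was not tested, and in whole muscle more cells of a type and more RNA per cell cannot be told apart.

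The cluster held 595398 counts in replicate 1 and 767812 in replicate 2. These were 14.9% (exact 95% interval 14.85 to 14.92) and 15.2% (15.13 to 15.2) of the assigned counts, or 15.03% ± 0.20 (SD, n = 2). Reads that match several places are in neither part of this share. Of all reads, multimapping and unassigned ones included, the cluster held a mean of 6.05%. The Clopper-Pearson intervals treat each read as independent and cover counting error within each library only. Reads carry no molecular identifiers here, so reads copied from the same molecule cannot be told apart. Of the 39 members, 35 had 10 or more counts in each library and are called detected, where 14.2% of all miRNA genes were. The detected members had a median of 719.8 CPM, against 135 CPM for all 313 detected genes. In both libraries, 31 members reached 100 CPM, of 169 genes that did so in the whole table. Genes with near-identical copies lose the reads that match several places. The part of this loss in the comparisons of members with all genes was not tested.

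The rest of the imprinted region and other groups give a scale for this share. The 20 proximal genes of the region, from Mir1906-1 to Mir882 around Rtl1 and Rian, took 14.5% in replicate 1 and 13.9% in replicate 2, or 14.2% ± 0.40. The distal cluster thus held 50.7% and 52.2% of the counts of the region, more than the proximal genes in each library. This difference within the 2 libraries was not tested. Another large tandem array, the 119 miRNA genes inside Sfmbt2, took 0.0909% and 0.0751%, with 6 of 119 genes detected and 109 without a count. Reads that match several of its copies were counted for none of them. How far this lowers the share of the array was not tested, so its share is no measure of its expression. The 5 imprinted miRNAs of other loci (Mir335, Mir483, Mir675, Mir296, Mir298) took 3.47% and 3.80%. At the upstream edge, the first gene outside the range, Mir882, had no count in either library, while Mir379 just inside had 126538 and 153924. At the downstream edge the last gene inside, Mir3072, had 199 and 222 counts, and the next plus-strand miRNA gene, Gm27299, had none.

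**Figure D1:**
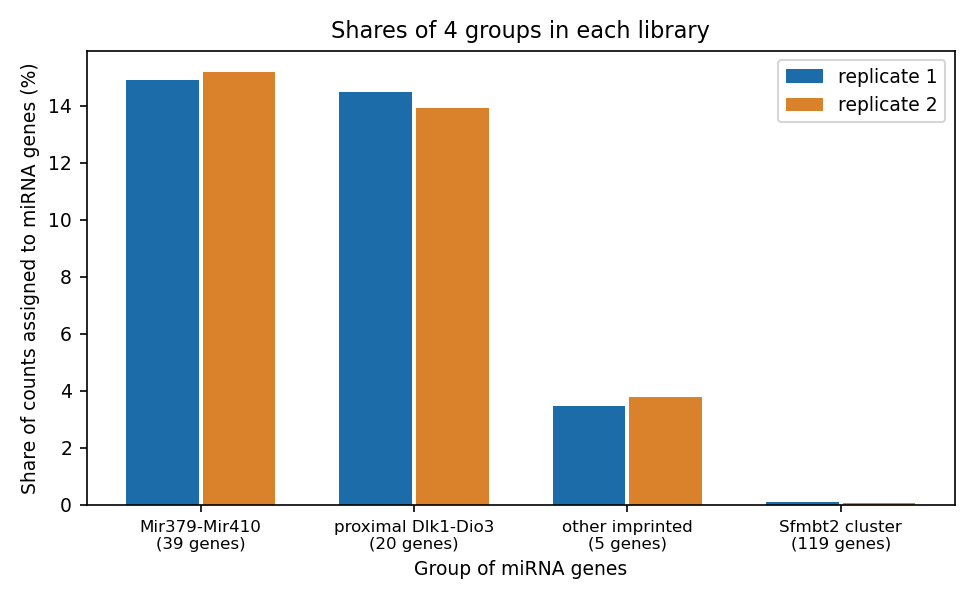
Share of the counts assigned to miRNA genes (percent, y axis) held by 4 groups of miRNA genes (x axis), with 1 bar for each library. The bars of the Mir379-Mir410 cluster stand at 14.9% and 15.2%, those of the proximal genes at 14.5% and 13.9%, and those of the Sfmbt2 genes below 0.1%.

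Mir411 and Mir379, the first genes of the block, held most of its counts. Mir411 (109710175 to 109710256 on chromosome 12, with no host gene), known to repress the myogenic factor Yaf2, had 241123 and 328271 counts, or 60293 and 64841 CPM. Mir379 (109709060 to 109709125, no host gene) had 31641 and 30404 CPM. Mir411 was the higher of the pair by 1.91-fold in replicate 1 and 2.13-fold in replicate 2. Together they made up 62.3% ± 0.74 of the cluster. Their hairpins lie 1049 bp apart and are shown because these genes carry most of the signal.
Mir379: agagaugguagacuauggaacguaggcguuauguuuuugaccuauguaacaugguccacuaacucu
Mir411: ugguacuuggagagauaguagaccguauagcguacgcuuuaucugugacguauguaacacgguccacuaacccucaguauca

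The next members lay further along the block. Mir541 (109742409 to 109742498, in an intron of the long non-coding RNA Mirg) had 12197 and 13228 CPM. Mir382 (109733771 to 109733846, across an exon boundary of Mirg) had 11342 and 11690 CPM. Both genes were close in level, and their ranges did not overlap. These 4 members were among the 20 most abundant miRNA genes of the table. Reads that match several places are left out of this rank. Mir487b followed with 6808 and 5891 CPM. The 5 leading members took 82.6% ± 0.69 of the cluster, which left 17.4% ± 0.69 for the other 34.

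The remaining leading members lay between 1000 and 10000 CPM. Mir381 had 3551 and 3336 CPM and Mir376c had 2989 and 3229 CPM. Mir299a had 3292 and 2824 CPM, a range that overlapped that of Mir376c, so these genes could not be ordered. Mir409 had 2404 and 2133 CPM, and Mir154 had 1929 and 1718 CPM. Mir369, whose 3p arm is known to act on AU-rich elements of the Tnf transcript, had 1640 and 1710 CPM. Mir134, known to limit dendritic spine size in neurons through Limk1, had 1352 and 1232 CPM. The same 12 genes led in both libraries.

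Most other members formed a broad middle. Of the 39, 4 stood at or above 10000 CPM, 9 from 1000 to 10000, 19 from 100 to 1000, 1 from 10 to 100 and 4 below 10 CPM with a count, and 2 had no count. Those bands are by the mean of both libraries. The lowest gene above 1000 CPM was Mir300, at 1043 and 1051 CPM. Among the middle 19 were Mir485 (742 and 802 CPM) and Mir329 (648 and 792 CPM), known with Mir134 for roles at synapses. Mir494, known to act on Tfam and Foxj3 in myoblasts, had 304.3 and 304 CPM. Mir495, known to target Bdnf, had 371 and 369 CPM. Mir410, the regulator of Sfrp2, stood near the lower end with 221 and 200.1 CPM. The other 14 of this band were Mir539, Mir376a, Mir1193, Mir380, Mir543, Mir496a, Mir668, Mir377, Mir666, Mir667, Mir376b, Mir679, Mir412 and Mir323, from 995 ± 66 down to 109 ± 18 CPM.

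The lowest members had few or no counts. Mir3072 had 46.8 ± 4.2 CPM. Gm27379 had 22 counts in each library and Mir758 had 15 and 12. Mir544 had 4 and 5 counts and Mir1197 had 2 and 0. Mir654 and Mir453 had none in either library. From the highest to the lowest detected member, Mir411 to Mir758, the level fell by a factor of 20443. Of the 36 pairs of neighbours in the order of levels, 25 had ranges that did not overlap between the libraries and 11 did. The order comes from the same 2 libraries as the ranges, so this describes them and does not test the order.

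**Figure D2:**
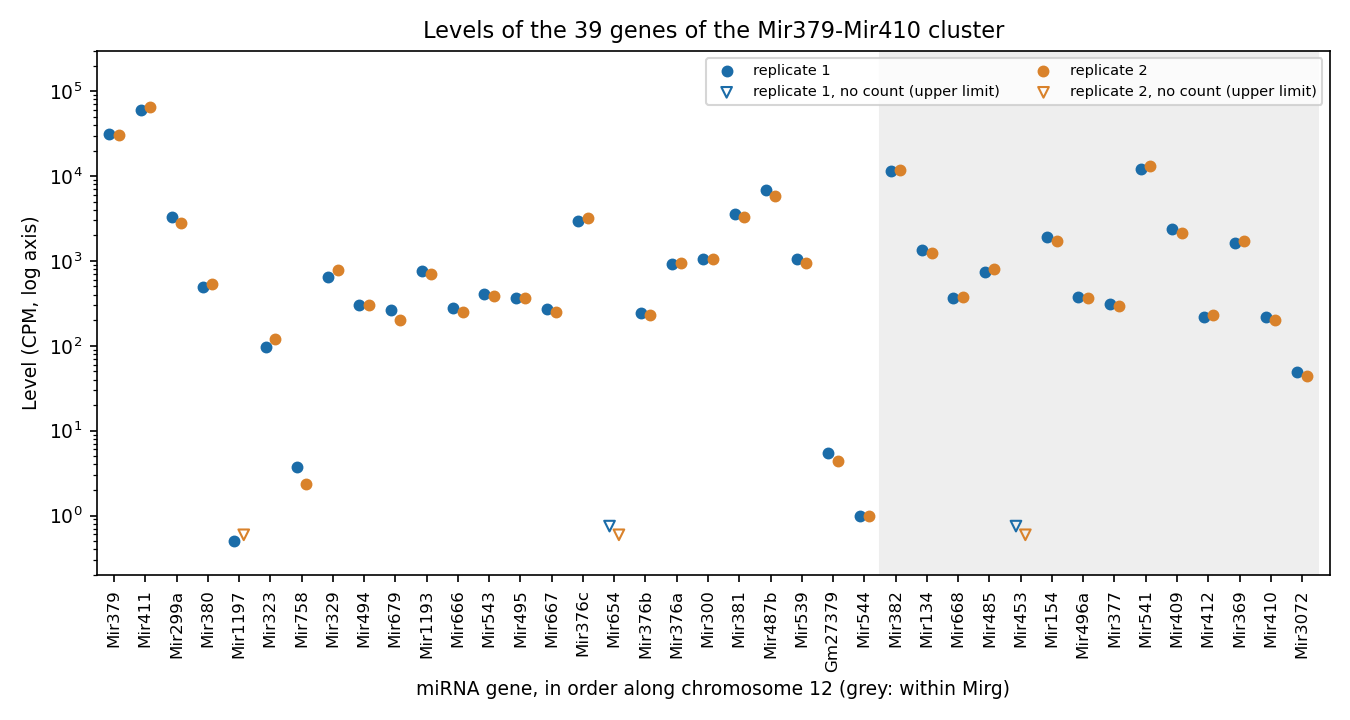
Level of each member in CPM (y axis, log scale) in the order of the genes along chromosome 12 (x axis), with a point for each library and a grey field for the genes inside Mirg. Open triangles mark libraries with no count, drawn at the upper limit that a count of 0 allows. Mir379 and Mir411 at the upstream end and Mir382 and Mir541 further along are the members above 10000 CPM, and 6 members lie below 10 CPM.

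Neighbouring members often differed widely in level. Over the 30 pairs of detected members that are immediate neighbours on the chromosome, the higher mean was a median of 4.24 times the lower. In 7 pairs the factor was at least 10 and in 7 it was under 2. Mir541 exceeded Mir377, 1831 bp upstream, by 39.1-fold in replicate 1 and 44.8-fold in replicate 2. Mir409 exceeded Mir412, whose hairpin begins 52 bp further on, by 11.05-fold and 9.14-fold. The widest steps were beside members with few counts. Mir329 exceeded Mir758, 590 bp apart, by 173-fold and 334-fold, from 15 and 12 counts of Mir758. Mir539 exceeded Gm27379, 618 bp apart, by 189-fold and 218-fold, from 22 counts of Gm27379 in each library. Mir654 lies between Mir376c and Mir376b and had no count. With the limit of 3 counts per library, Mir376c, 414 bp away, was at least 3984-fold higher in replicate 1 and at least 5450-fold higher in replicate 2.

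No order by position was seen over the whole block. Across the 39 genes Spearman's rho between position and level was -0.039, a description over genes that share both libraries. By annotation, 25 members lie upstream of Mirg (109729764 to 109749460) with no host gene on their strand, and 14 lie within it. The 25 upstream held 77.6% ± 0.12 of the cluster's counts, mainly from Mir411 and Mir379, with a median of 398 CPM and 22 detected. The 14 within Mirg held 22.4% ± 0.12, with a median of 572 CPM and 13 detected. Of these 14, 4 lie in an exon (Mir134, Mir485, Mir377, Mir410; 211 to 1292 CPM), 5 across an exon boundary and 5 in an intron (Mir453, Mir154, Mir496a, Mir541, Mir409). The intronic genes ranged from 0 to 12713 CPM.

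The counts of the cluster were spread over more genes than those of its proximal neighbours. The leading gene took 40.5% and 42.8% of the distal counts, while Mir127 took 67.9% and 68.8% of the proximal counts. The effective number of genes, the inverse of the summed squared shares, was 4.29 ± 0.18 for the cluster and 2.07 ± 0.03 for the proximal genes. The values of each library lay apart, but the groups also differ in size (39 and 20 genes), and the difference was not tested.

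**Figure D3:**
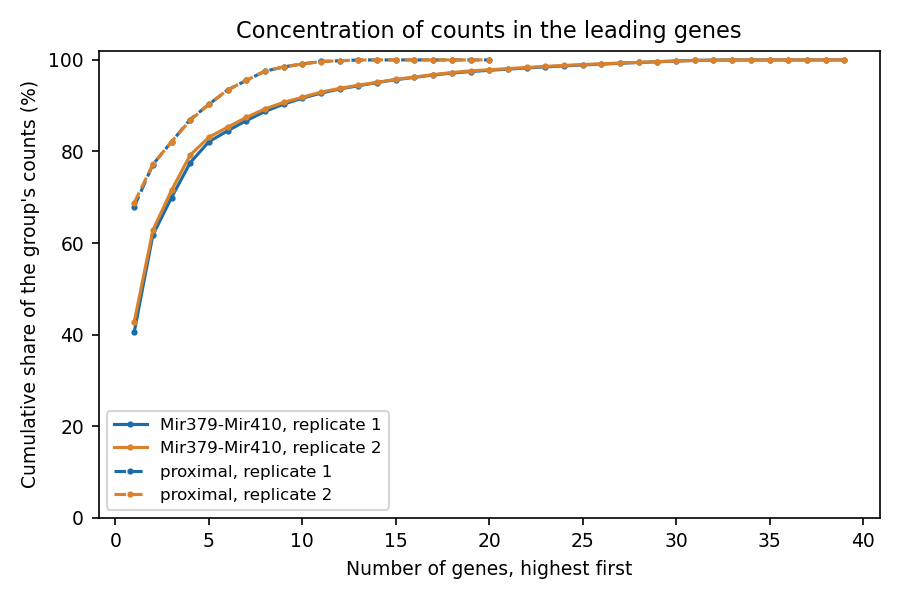
Cumulative share of a group's counts (percent, y axis) against the number of its genes, highest first (x axis), for the Mir379-Mir410 cluster (solid) and the proximal genes (dashed) in each library. The cluster starts at 40.5% and 42.8% with its leading gene and reaches 82.6% on average with 5 genes, and the proximal genes start at 67.9% and 68.8%.

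Short stretches recurred in the hairpins, chosen here after the sequences were seen and searched on the sense strand of 36 member hairpins in the RefSeq table. UACUUG was found in 10 of 36 member hairpins (27.8%), in 0 of 18 proximal hairpins and in 16 of 969 hairpins outside the cluster (1.65%). AGUAUC was found in 7 of 36 (19.4%), 0 of 18 and 14 of 969 (1.44%). GGUUG was found in 12 of 36 (33.3%), 1 of 18 and 95 of 969 (9.80%). The hairpin of Mir411 printed above holds UACUUG and AGUAUC, near its 5′ and 3′ ends. Mir494, Mir487b and Mir369 also hold both. The GC content of the detected members' hairpins ran from 29.1% to 72.3% with a median of 43.3%. Across the 35 detected members, Spearman's rho of level with GC content was -0.35 and with hairpin length -0.26, descriptions over genes that share both libraries.

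Longer stretches are of note because reads that match several places were counted for no gene. A stretch of 20 nt or more in common with another annotated miRNA hairpin was found for 6 of the 39 members. For Mir411 and Mir758 the shared 21 nt cover 12 of the 22 bases of the 3p arm of Mir411 and none of its 5p arm. For Mir376c and Mir376b the shared 31 nt cover 18 of the 22 bases of each 5p arm. For Mir487b the 20 nt shared with Mir376b lie outside its 5p arm, and its 3p arm was not listed, so overlap with that arm was not checked. For Mir299a the partner is Mir299b, annotated on the opposite strand of the same place (109710645 to 109710693).
mmu-miR-299a-5p: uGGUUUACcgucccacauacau
mmu-miR-299b-5p: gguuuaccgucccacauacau
mmu-miR-299a-3p: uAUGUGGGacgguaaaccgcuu
mmu-miR-299b-3p: uaugugggacgguaaacc
Both arms of Mir299b, shown in lower case without a marked seed, are contained in the arms of Mir299a. A read of Mir299a short enough to lie within the shared part matches both strands of this place. How far these members are undercounted was not tested. None of the 71 arms was found whole in an annotated transcript of another place, on either strand.

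The sense column and the column that disregards strand differed for 5 members. Mir299a, Mir380, Mir376a, Mir539 and Mir409 have a miRNA gene annotated on the opposite strand, and together they held 5.18% ± 0.43 of the cluster's sense counts. Mir409 had 9612 and 10799 sense counts and 0 in the column that disregards strand. Mir539 had 4165 and 4800 against 0, Mir376a 3724 and 4824 against 0, and Mir380 1954 and 2720 against 0. Mir299a had 13164 and 14298 against 4 and 3. The genes on the opposite strand had no count, except Mir299b with 8 and 4. The other 34 members had the same counts in both columns.

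**Figure D4:**
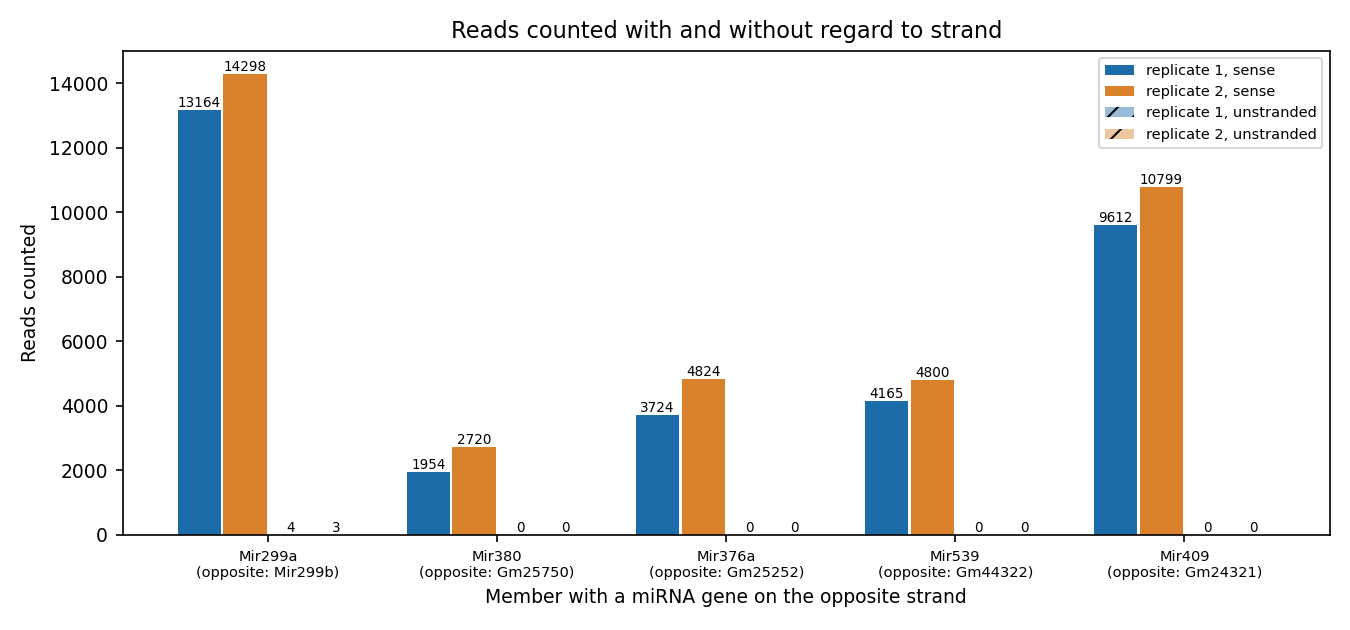
Reads counted (y axis) for the 5 members with a miRNA gene on the opposite strand (x axis), from the sense column and from the column that disregards strand, in each library. The number above each bar is its count; 9612 and 10799 sense reads of Mir409 stand against 0 and 0.

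The 2 libraries matched closely over the cluster, and the test between them compares these libraries, not conditions. For the 332 genes whose mean count reached 10, the counts were compared by an exact binomial test (two-sided), with library totals scaled by TMM (trimmed mean of M-values). Its p-values were adjusted by Benjamini-Hochberg over all of them and measure counting error only. Of the 35 members tested, 13 were higher in replicate 2 and 6 were lower, where 27.1% and 12.3% of all genes tested were. With plain library totals the split was 9 higher and 10 lower, against 18.7% and 23.8% of all genes. The median log2 ratio of the members was 0.0035 with TMM, against 0.016 over all genes tested. The median size of the log2 ratio, without its sign, was 0.10 for the members and 0.16 for all genes tested. These medians are not at like depth: detected members had a median of 719.8 CPM, against 135 CPM for all detected genes. Counting error is smaller at higher counts, and its part in this difference was not tested. Markers of cell types also differed between the libraries. The erythroid Mir451a and Mir144 summed to 1680 and 4088 CPM, and the liver Mir122 stood at 103 and 272 CPM. Higher in replicate 2 as well were the endothelial Mir126a (55784 and 67925 CPM) and the smooth muscle Mir143 (23930.5 and 29123.5 CPM). The smooth muscle Mir145a was not called (641 and 589 CPM). The fibroblast list summed to 4296 and 3827 CPM, and the leukocyte list to 423 and 447 CPM. The muscle list summed lower in replicate 2 through Mir206 (100599 and 87446 CPM). Of its other genes, Mir499, Mir208b, Mir1a-2 and Mir486 were called higher in replicate 2, and no other was called lower. The part of these cell types in the members' differences was not tested.

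The 19 members called lay between -0.30 and 0.42 in log2 ratio. Mir323, known as a brain-enriched miRNA, had 383 and 616 counts, and it was higher in replicate 2 by 1.33-fold (log2 0.42, interval 0.23 to 0.60, exact binomial adjusted p = 4.34e-05). Mir329 was higher by 1.28-fold (log2 0.36, interval 0.29 to 0.43), from 2591 and 4008 counts. Mir679 was lower, with a log2 ratio of -0.30 (interval -0.43 to -0.17, exact binomial adjusted p = 1.29e-05), from 1048 and 1026 counts. Mir411, with the most counts, gave a log2 ratio of 0.18 (interval 0.17 to 0.18). Mir541 gave 0.19, Mir382 0.11 and Mir487b -0.14. Mir379 passed with a log2 ratio of 0.014 (exact binomial adjusted p = 0.0339), which became -0.058 with plain library totals.

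No member passed the binomial test with a difference of at least 1.5-fold, where 7.53% of all genes did. Mir758 was the only member past 1.5-fold without regard to the test, from 15 and 12 counts (log2 -0.59, interval -1.82 to 0.60). By edgeR's exact test for negative binomial counts, whose dispersion came from the same pair of libraries, 0 of 35 members passed after adjustment and 0 had an unadjusted p under 0.05, where 1.81% and 6.93% of all genes did. The composition of the cluster still differed beyond counting error, with a chi-square statistic divided by its 34 degrees of freedom of 53.7. For a given set of ratios this statistic grows with the number of counts, and no value over all genes is given here. Nothing was seen to separate the genes by host: 8 of 22 tested members upstream of Mirg were higher and 3 lower, against 5 and 3 of 13 within it, a difference that was not tested.

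**Figure D5:**
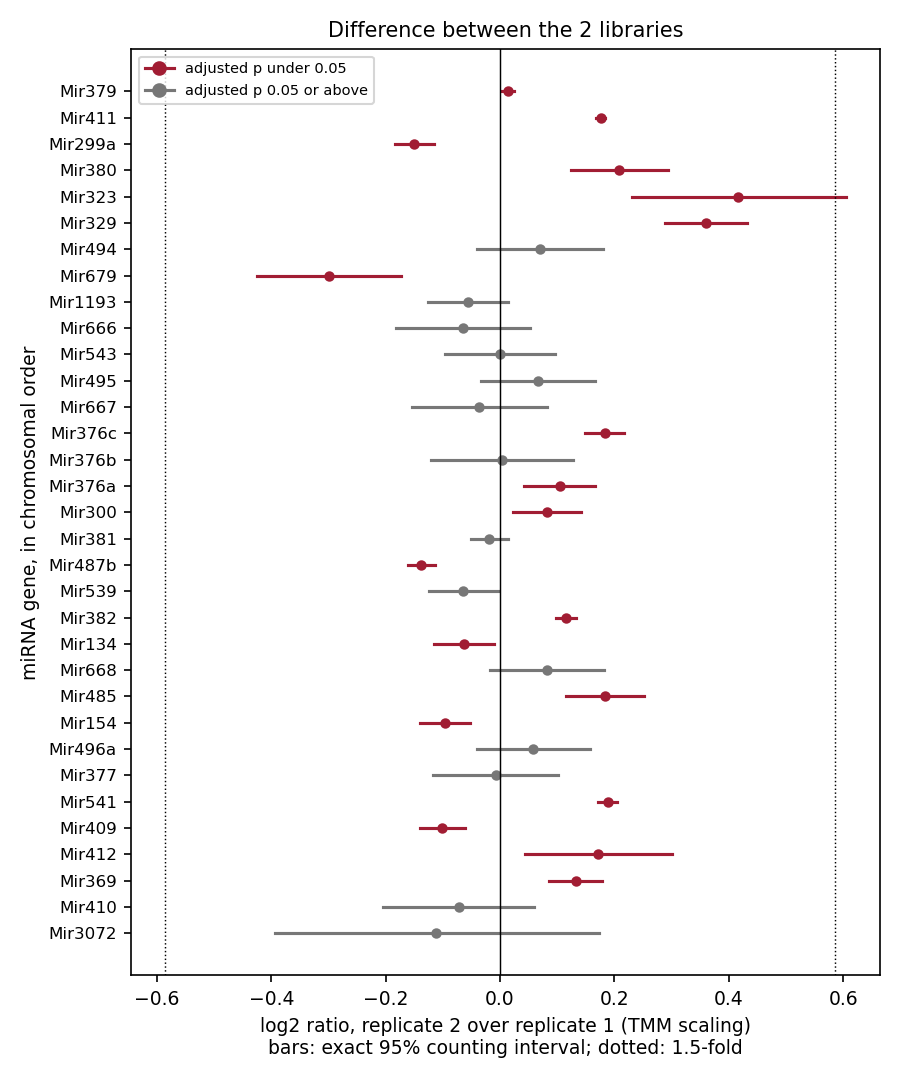
log2 ratio of replicate 2 over replicate 1 (x axis, TMM scaling) for the 33 members at or above 10 CPM, in chromosomal order (y axis). Points are ratios, bars exact 95% counting intervals, red an adjusted p under 0.05, and dotted lines mark 1.5-fold, which no point reaches; the highest point is Mir323 at 0.42 and the lowest Mir679 at -0.30.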

How the data were processed

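Raw read counts per miRNA gene were deposited in a table for each library, made on mm10 with GENCODE M21 per the metadata text beside it. Which aligner and counter made them is not given in the sources used here. The tables have no header, and the third column was taken as sense-strand counts because its total was over 5 times that of the opposite strand. The 4 summary rows, 58.7% and 60.7% of all reads, stayed out of the totals. Gene coordinates and hosts came from M21, mature sequences from RefSeq. Members and lists were chosen with earlier results of these data known. All members are named. CPM are given as values per library or mean ± SD (n = 2). The binomial test used scipy 1.17.1 with TMM factors over all genes from edgeR 4.0.16 in R 4.3.3, and was tested on simulated counts. Alternatives were plain totals, DESeq2 1.42.0 size factors, other minimums, the unstranded column and each library alone. The binomial p-values measure counting error between these 2 samples and hold no estimate of the spread between animals.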

Additional observations from a re-analysis of the deposited data

Results flagged for a closer look

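The opposite-strand column is not used in any comparison. It held reads above the limit of 3 counts in both libraries at 1 member, Mir299a, with 8 reads in replicate 1 and 4 in replicate 2, where Mir299b is annotated. All other members had 0 opposite-strand reads in both libraries.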

How the results depend on the processing

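The cluster's share of assigned counts ranged from 14.9% to 15.2% when each library was left out. It was 17.4% with unstranded counts, where reads at overlapping genes leave both the cluster and the totals, 6.05% of all reads, and 9.36% without Mir411. That last alternative was chosen after seeing the data, as was the removal of members with an arm in another M21 transcript, which left the share at 15.03% because no member met it. It replaced a planned search of the genome, which was not run because no genome sequence was used here. The distal share of the region ranged from 50.7% to 52.2% over the libraries and was 51.4% unstranded. The 3 leading members held 69.9% to 71.5% of the cluster, and 74.6% unstranded. Between 30 (unstranded) and 35 members were detected in every alternative, and all 35 in each library alone.

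The count of members lower in replicate 2 went from 6 to 10 with plain totals. With edgeR's negative binomial test it was 0, as was the count of members higher; the counts of higher members otherwise ran from 9 to 13. The median log2 ratio turned from 0.0035 to -0.068 with plain totals, and that of Mir379 from 0.014 to -0.058. Of the 35 members, 28 kept their call, or lack of one, with plain totals, 3 lost the call and 3 gained one. Mir379 was called under both scalings but in opposite directions. Among the 28, Mir494, Mir495, Mir496a and Mir376b were called under neither scaling, and their log2 ratios turned from positive to negative. With DESeq2 size factors all 35 kept their direction and side of the threshold. No paired analysis was possible because the series has 1 group. Depth limits what can be said of Mir1197, Mir544, Mir654 and Mir453, which had under 10 counts.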
